A study of Arabidopsis thaliana with 6 samples.

Results

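The genes described here encode the Calvin cycle enzymes that act after Rubisco, with the CP12 linker proteins, and the enzymes and transporters of photorespiration. They were chosen by locus from general knowledge of the pathways, 17 genes for the Calvin cycle and 17 for photorespiration, and each of the 34 had at least 1 probe and was among the 22682 genes tested. RNA came from whole seedlings of Arabidopsis thaliana, all of ecotype Columbia-0, that were either wild type (WT) or *pgp1-2*, a mutant in the gene *PGP1* for a synthase that makes the precursor of phosphatidylglycerol, the main phospholipid of the photosynthetic membrane. There were 3 arrays per genotype. All seedlings grew in continuous light on agar with 3% sucrose. Photon flux (µmol m-2 s-1) was 30 at first, for 7 d in the wild type and 14 d in the mutant, and was then lowered to 15 for the last 7 d of both. At harvest the wild type was therefore 14 d old and the mutant 21 d old. Genotype and age therefore cannot be told apart in any difference below. The labels do not describe the allele further.

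The Calvin cycle fixes CO2 in the plastid. After Rubisco has made 3-phosphoglycerate, a kinase and a dehydrogenase reduce it to triose phosphate, and aldolases, phosphatases, transketolase, an isomerase, an epimerase and phosphoribulokinase rebuild the CO2 acceptor. Rubisco also reacts with oxygen and then yields 2-phosphoglycolate, which photorespiration salvages through the plastid, the peroxisome and the mitochondrion, where glycine is turned into serine with release of CO2 and ammonia. In leaves, the genes of both pathways are known to be expressed mainly in green tissue and in the light.

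Values are log2 signals from which the array's own 75th percentile was subtracted, and differences are mutant minus wild type on that log2 scale. The single *PGP1* (AT2G39290) probe read 0.78, 0.93 and 0.73 on the wild-type arrays and was not well above background on any mutant array, a signal at least 226-fold higher in the wild type (limma adjusted p = 8.55e-05; the dim side was set, per array, to the lowest signal well above background or the probe's own). The 75th percentile of the processed signal was 2620 to 3653 on the 6 arrays. Of all genes, 24.5% were called lower and 27.9% higher in *pgp1-2* by limma at an adjusted p under 0.05, the median difference was 0.034, and the groups did not overlap, with the mutant lower, at 29.6%.

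Most genes of both pathways had lower signals in the mutant. Of the 34 genes, 32 were called lower, where 24.5% of all genes were, 1 (*FBA3*) was called higher and 1 (*CP12-3*) was not called. Counting both directions, 33 were called, where 52.4% of all genes were. The wild-type and mutant arrays did not overlap for any of the 32, nor for *FBA3*, the 1 gene with all mutant arrays higher, which 34.6% of all genes had. Of these, 23 fell by a log2 difference of 1 or more, which 8.05% of all genes did. The median difference of the 34 was -1.14 and the range was -2.16 to 0.60. Standard errors (SE) of the differences were 0.077 to 0.20 and adjusted p-values of the 33 called genes 0.000217 to 0.0238. All 34 genes were well above background on all 6 arrays and none was saturated. Seedlings are a mixture of cell types, and fewer green cells and less RNA per green cell cannot be told apart.

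**Figure D1:**
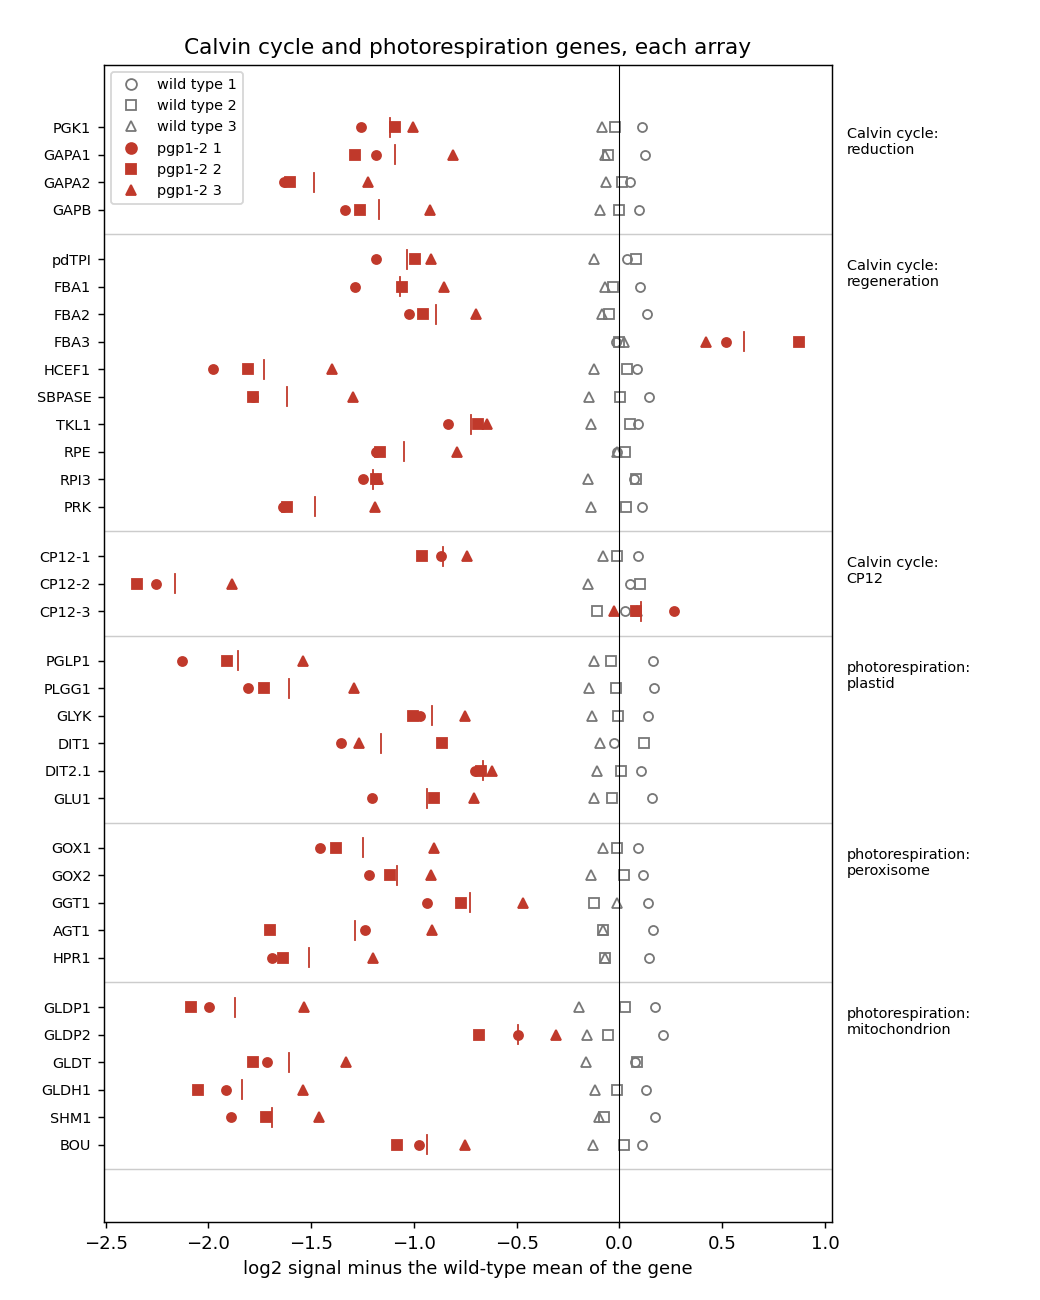
Log2 signal of each of the 34 genes on each array, minus the gene's mean over the 3 wild-type arrays, in order of pathway step. Grey open symbols are wild-type and red filled symbols mutant arrays (circle, square and triangle for replicates 1 to 3), and the red bar is the mutant mean; the mutant arrays lie left of the wild type except for *FBA3*, to the right, and *CP12-3*, which overlaps.

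The median difference was -1.09 for the 17 Calvin cycle genes, of which 15 were called lower, and -1.25 for the 17 photorespiration genes, all of which were called lower. By compartment, the photorespiration medians were -1.05 for 6 plastid genes, -1.25 for 5 peroxisomal genes and -1.65 for 6 mitochondrial genes. The ranges of these compartments overlapped, at -1.86 to -0.67, -1.51 to -0.73 and -1.87 to -0.49. No test of one compartment against another was made, and these medians are descriptions.

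The 4 genes of the reduction steps all fell. The genes for phosphoglycerate kinase (*PGK1*) and for the A and B subunits of the NADP-dependent glyceraldehyde-3-phosphate dehydrogenase (*GAPA1*, *GAPA2* and *GAPB*) were all called lower, with differences of -1.12, -1.09, -1.49 and -1.17 in that order. *GAPB* (AT1G42970), whose protein carries the tail that lets the enzyme be switched by light, read 6.66, 6.56 and 6.47 on the wild-type arrays and 5.23, 5.30 and 5.64 on the mutant arrays. The groups were apart by more than the spread within either. Its mean went from 6.56 ± 0.096 to 5.39 ± 0.22 (SD, n = 3), 44.4% of the wild-type signal on the linear scale (limma adjusted p = 0.000789). Under quantile normalization *PGK1*, *GAPA1*, *GAPA2* and *GAPB* were at -0.70, -0.45, -1.08 and -0.52 and each was still called. With arrays scaled to the spike-in probes, *GAPA2* was called, and *PGK1*, *GAPA1* and *GAPB* were not (adjusted p = 0.113, 0.128 and 0.0858) unless slide was also a block.

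Among the regeneration steps, 9 of 10 genes were called lower and the median difference was -1.06. The bisphosphatases, which light activates through thioredoxin, had the most negative differences of the 10. The gene for plastid fructose-1,6-bisphosphatase (*HCEF1*, AT3G54050) read 5.33, 5.28 and 5.12 in the wild type and 3.27, 3.44 and 3.84 in the mutant. Its mean fell from 5.24 ± 0.11 to 3.51 ± 0.30 (SD, n = 3), a difference of -1.73 (SE 0.16, limma adjusted p = 0.000480), or 30.2% of the wild-type signal. Mutant replicate 3 was the highest of the mutant arrays but still lay far below each wild-type array.

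Sedoheptulose-bisphosphatase (*SBPASE*, AT3G55800), an enzyme that only the Calvin cycle uses, was close to *HCEF1*. It read 5.37, 5.23 and 5.08 in the wild type and 3.45, 3.45 and 3.93 in the mutant, a difference of -1.62 (SE 0.16, limma adjusted p = 0.000585). Phosphoribulokinase (*PRK*, AT1G32060), which makes the CO2 acceptor, read 3.89, 3.81 and 3.64 against 2.14, 2.16 and 2.59. Its difference was -1.48 (SE 0.14, limma adjusted p = 0.000571). The groups did not overlap for any of these 3 enzymes, and no test of one against another was made.

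The other regeneration genes changed less. The genes for ribose-5-phosphate isomerase (*RPI3*), the epimerase (*RPE*), plastid triose-phosphate isomerase (*pdTPI*) and the aldolase *FBA1* fell by 1.20, 1.05, 1.03 and 1.07 on the log2 scale. The aldolase *FBA2* fell by 0.89. Transketolase (*TKL1*, AT3G60750), which also serves the oxidative pentose phosphate pathway and precursor supply for aromatic amino acids, had the smallest fall of the 9, from 5.71 ± 0.12 to 4.99 ± 0.099 (SD, n = 3; difference -0.72, limma adjusted p = 0.00143). Under quantile normalization, *TKL1* was at -0.22 and not called (adjusted p = 0.0667; over all alternatives 0.00107 to 0.478).

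One plastid aldolase moved the other way. *FBA3* (AT2G01140), the plastid aldolase known for its role in non-green tissue, read 1.96, 1.97 and 2.00 in the wild type and 2.49, 2.85 and 2.40 in the mutant. All 3 mutant arrays were above the wild type, whose arrays lay close together. It rose from 1.97 ± 0.020 to 2.58 ± 0.24 (SD, n = 3), a difference of 0.60 (SE 0.12, limma adjusted p = 0.00831), 1.52-fold. Its difference was 0.47 to 0.99 over the alternatives tried and it was called under each.

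The CP12 proteins are small linkers that bind glyceraldehyde-3-phosphate dehydrogenase and phosphoribulokinase into an inactive complex in the dark, and their 3 genes did not move alike. *CP12-2* (AT3G62410) read 3.07, 3.12 and 2.87 in the wild type and 0.77, 0.68 and 1.14 in the mutant. Its difference of -2.16 (SE 0.14, limma adjusted p = 0.000217) was the most negative of the 34 genes and left 22.3% of the wild-type signal. *CP12-1* (AT2G47400) fell by 0.86 (limma adjusted p = 0.000643), to 55.2% of the wild-type signal, but was at -0.17 and not called under quantile normalization (adjusted p = 0.121; over all alternatives up to 0.320). *CP12-3* (AT1G76560), the isoform known to be expressed in roots, was between -0.09 and 0.11 on the wild-type arrays and overlapped them on the mutant arrays. Its difference was 0.11 (SE 0.099, limma adjusted p = 0.405). With arrays scaled to the spike-in probes and the slide as a block, it was called higher, at 0.49 (adjusted p = 0.0405; over all alternatives up to 0.836). Under that setting 10434 of all 22682 genes were called higher.

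Photorespiration starts in the plastid. 2-Phosphoglycolate phosphatase (*PGLP1*, AT5G36700), the entry enzyme, read 3.07, 2.87 and 2.78 in the wild type and 0.78, 1.00 and 1.37 in the mutant. The groups were separated by more than 1 log2 unit. The difference was -1.86 (SE 0.16, limma adjusted p = 0.000440), which is 27.6% of the wild-type signal. A near copy of this gene, AT5G36790, had 0 probes assigned to it, and the *PGLP1* probes may include its transcripts. *PLGG1* (AT1G32080), the envelope transporter that exports glycolate and takes up glycerate, read 4.30, 4.12 and 3.99 against 2.33, 2.41 and 2.85, a difference of -1.61 (limma adjusted p = 0.000621).

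The other 4 plastid genes had smaller differences than *PGLP1* and *PLGG1*, without a test of one against the other. Glycerate kinase (*GLYK*), which returns the carbon to the Calvin cycle, fell by 0.91. The dicarboxylate translocators that carry 2-oxoglutarate and glutamate across the envelope, *DIT1* and *DIT2.1*, fell by 1.16 and 0.67, and ferredoxin-dependent glutamate synthase (*GLU1*), which helps to refix the ammonia, fell by 0.94. *DIT2.1* (AT5G64290) had the smallest fall of the 6, from 2.67 ± 0.11 to 2.00 ± 0.041 (SD, n = 3; limma adjusted p = 0.00101). When arrays were scaled to spike-in probes instead, all 4 stayed lower and none was called. With slide as a block in addition, *DIT2.1* was still not called (-0.28, adjusted p = 0.185; over all alternatives up to 0.555), and the other 3 were.

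In the peroxisome, glycolate oxidase makes glyoxylate, 2 aminotransferases turn it into glycine, and hydroxypyruvate reductase acts on the returning product of serine. All 5 genes were called lower, with a median of -1.25. *HPR1* (AT1G68010), the hydroxypyruvate reductase, had the most negative difference. It read 5.21, 4.99 and 4.99 in the wild type and 3.37, 3.43 and 3.86 in the mutant, a difference of -1.51 (SE 0.15, limma adjusted p = 0.000617). The serine:glyoxylate aminotransferase *AGT1* (AT2G13360) read 4.33, 3.87 and 4.66 in the mutant, the widest mutant spread of the 34 genes, and 5.73, 5.49 and 5.49 in the wild type (difference -1.28, limma adjusted p = 0.00316).

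The glycolate oxidase genes *GOX1* and *GOX2*, which are next to each other on chromosome 3 with 0 genes between them, fell by 1.25 and 1.08. Their sequences are close, and a probe for one may include the other. The glutamate:glyoxylate aminotransferase *GGT1* (AT1G23310) changed least of the peroxisomal genes. It read 6.44, 6.18 and 6.29 in the wild type and 5.37, 5.53 and 5.83 in the mutant, a difference of -0.73 (limma adjusted p = 0.00625). Under quantile normalization it was at -0.023 and not called (adjusted p = 0.859; over all alternatives 0.0034 to 0.859).

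The mitochondrial step is catalysed by the glycine decarboxylase complex of P, T, H and L proteins together with serine hydroxymethyltransferase. *GLDP1* (AT4G33010), for the P protein that decarboxylates glycine, read 3.41, 3.27 and 3.05 in the wild type and 1.25, 1.16 and 1.71 in the mutant. Its difference was -1.87 (SE 0.17, limma adjusted p = 0.000497), which left 27.3% of the wild-type signal. *GLDH1* (AT2G35370), for the H protein that shuttles the intermediate, read 4.78, 4.64 and 4.52 against 2.73, 2.60 and 3.11 (difference -1.83, limma adjusted p = 0.000340). The P and H genes thus fell by amounts that differed by less than their standard errors.

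The T protein gene *GLDT* (AT1G11860), for the part that hands the one-carbon unit to folate, fell by 1.61, from 4.43 ± 0.14 to 2.83 ± 0.24 (SD, n = 3). Serine hydroxymethyltransferase (*SHM1*, AT4G37930) fell by 1.69, from 5.97 ± 0.15 to 4.28 ± 0.21. The mitochondrial carrier gene *BOU* (AT5G46800), needed for glycine decarboxylase activity in young leaves, fell by 0.94 (limma adjusted p = 0.00113). All 3 were apart from the wild type on each mutant array.

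The second P protein gene, *GLDP2* (AT2G26080), stood nearest to 0 of all the genes called lower. It read 3.00, 2.73 and 2.63 in the wild type and 2.29, 2.11 and 2.48 in the mutant. The gap between the groups was smaller than the spread within either. Its difference was -0.49 (SE 0.14, limma adjusted p = 0.0238). The call was lost under 10 of 17 alternatives (adjusted p 0.020 to 0.828), among them normexp (-0.40), and the removal of single arrays. The adjusted p was 0.0617 and 0.0552 without the first and the second wild-type array, and 0.0648 and 0.0612 without the first and the second mutant array.

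Related genes (isoforms, the A and B subunits of one enzyme, and 2 dicarboxylate translocators) were set against each other within each array, in 9 pairs. The smallest p that 3 arrays against 3 allow in a two-sided exact permutation test is 0.1, which 7 of the pairs reached (adjusted over the 9 pairs, 0.129), so no pair could pass the threshold. The change of *GLDP1* was 1.38 below that of *GLDP2*; relative to the wild-type mean of this within-array difference, the mutant arrays were at -1.50, -1.40 and -1.22 and the wild-type arrays between -0.040 and 0.079. The change of *CP12-3* was 2.27 above that of *CP12-2*, with mutant arrays at 2.52, 2.42 and 1.86. The change of *CP12-1* was 1.31 above that of *CP12-2*, and that of *FBA3* was 1.50 above that of *FBA2*. In these 4 pairs the gap between the groups was wide against the spread of the wild type.

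In the other 5 pairs the differences were smaller. The change of *GAPA1* was 0.39 above that of *GAPA2* and that of *DIT1* was 0.49 below that of *DIT2.1*, without overlap between the groups. The groups overlapped when all probes were averaged for *GAPA1* and *GAPA2* (0.24, exact permutation p = 0.20), and under quantile normalization for *DIT1* and *DIT2.1* (-0.38, exact permutation p = 0.20). For *FBA1* against *FBA2* the difference was -0.17, and it changed sign to 0.060 when all probes of each gene were averaged. *GAPA1* and *GAPB* differed by 0.079 and *GOX1* and *GOX2* by -0.16 (exact permutation p = 0.30 for each), and the groups overlapped in both pairs. For *GOX1* and *GOX2* they no longer overlapped with all probes averaged (-0.32) or with normexp (-0.22), with an exact permutation p of 0.10 for each.

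Other genes of the pathways, which are not among the 34, were drawn from lists written from general knowledge. Of 13 further photorespiration genes, 8 were called lower, where 24.5% of all genes were, and 4 higher, near the 27.9% of all genes. The last 1 was not called, and the median of the 13 was -0.49. The genes lower by 1 or more on the log2 scale were *GS2* (-1.75), the plastid glutamine synthetase that refixes ammonia, *PMDH2* (-1.62), a peroxisomal malate dehydrogenase, the H protein gene *GDCH3* (-1.60) and *CAT2* (-1.33), the catalase that removes the hydrogen peroxide of glycolate oxidation. *GGT2* (-0.47) and *DIT2.2* (-0.49) were called lower too.

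The 4 called higher were isoforms of steps for which another gene was called lower. The H protein gene *GDCH2* (AT2G35120) read 0.46, 0.43 and 0.48 in the wild type and 1.22, 1.35 and 0.88 in the mutant, a rise of 0.70 (limma adjusted p = 0.00518), where *GLDH1* was at -1.83. *SHM2* (AT5G26780) read 0.24, 0.26 and 0.20 against 0.89, 1.01 and 0.57, a rise of 0.59 (limma adjusted p = 0.00835), where *SHM1* was at -1.69. The other 2, chosen for mention after their values were seen, were *PMDH1* (0.46) and *mtLPD2* (0.22), for an L protein. The other L protein gene, *mtLPD1*, also chosen for mention after its value was seen, was at -0.82.

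Of 10 measured paralogs that act outside the main photorespiratory cycle, 5 were called higher, where 27.9% of all genes were, and 1 lower, where 24.5% were. Their median was 0.21. *GOX3* (AT4G18360), a glycolate oxidase relative known from roots, rose the most. It read -2.69, -2.62 and -2.60 in the wild type and -0.37, -0.54 and -1.09 in the mutant, a difference of 1.97 (SE 0.19, limma adjusted p = 0.000537), 3.91-fold. *GLT1*, the NADH-dependent glutamate synthase, chosen for mention after its value was seen, rose by 0.74, where *GLU1* was at -0.94.

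**Figure D2:**
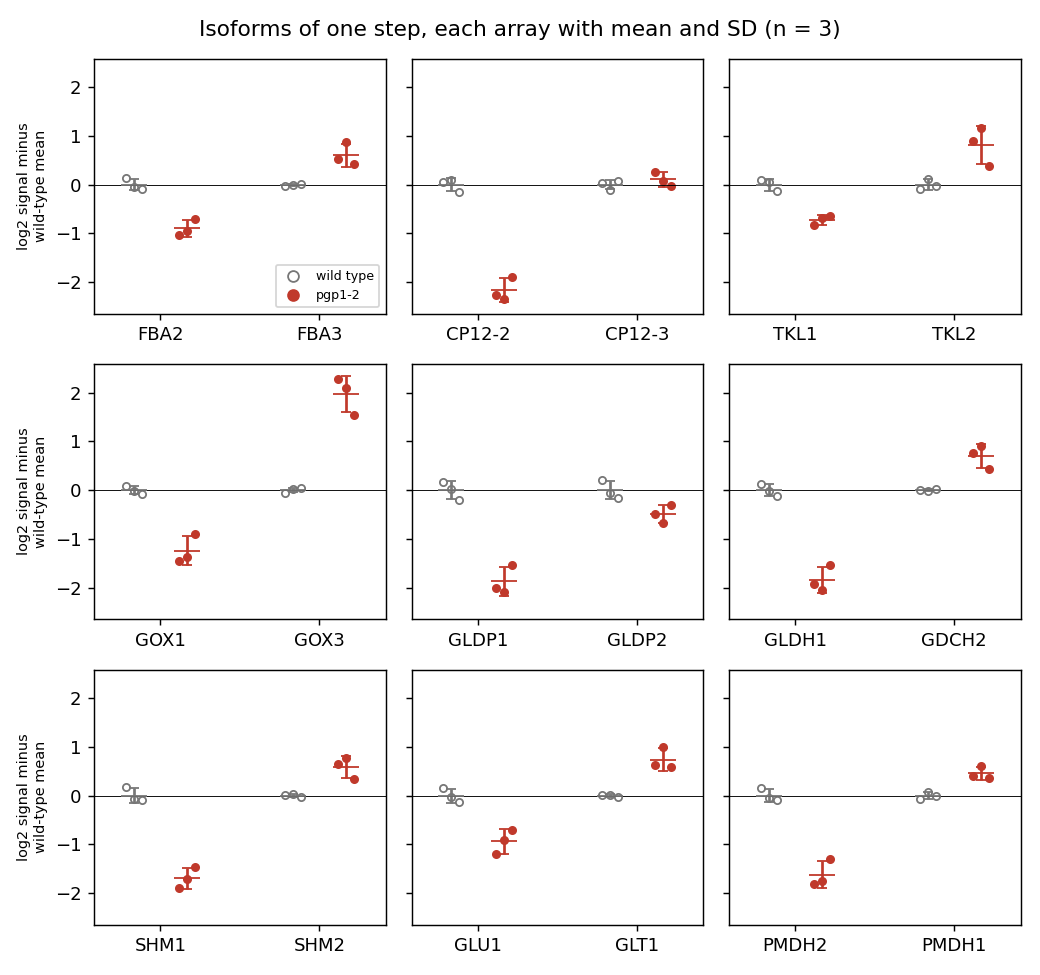
Log2 signal minus the gene's wild-type mean, on each array, for 9 pairs of genes of one step or protein (grey open circles wild type, red filled circles *pgp1-2*; horizontal marks are means and bars SD, n = 3). The pairs shown were chosen after the values were seen: the left gene of each pair lies below 0 in the mutant, and the right gene lies above 0 or, for *CP12-3* and *GLDP2*, nearer to it than its partner.

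Of the 4 further plastid isozymes of the Calvin cycle, *PGK2* (-1.50) and the isomerase gene *RPI4* (-0.81, chosen for mention after its value was seen) were called lower. *TKL2* (AT2G45290), a second transketolase, read -1.41, -1.20 and -1.35 in the wild type and -0.42, -0.16 and -0.94 in the mutant. It was called higher, at 0.81 (limma adjusted p = 0.0161), where *TKL1* was at -0.72. The plastid phosphatase gene *cFBP2*, also chosen for mention after its value was seen, was not called (-0.23, limma adjusted p = 0.0568).

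The 16 cytosolic or non-photosynthetic isozymes of the same reactions showed no common direction. Of these, 4 were called lower, 4 higher and 8 were not called, and the median was 0.16. Of all genes, 24.5% were called lower and 27.9% higher, so both counts were near those shares. The falls of 1 or more were those of *FBA5* (-2.70), a cytosolic aldolase gene with close copies, and of *cyFBP* (-1.43), the cytosolic fructose-1,6-bisphosphatase of sucrose synthesis. *FBA5* varied more than any of the 34 genes in the mutant, with 0.05, 0.31 and 1.30 on the 3 arrays against 3.37, 3.32 and 3.07 in the wild type. The glycolytic genes *GAPC1* (0.67) and *PGK3* (0.41), chosen for mention after their values were seen, were called higher.

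Several probes measured many of the 34 genes. In all, 81 of 82 probes were kept, 78 of these were called lower when each probe was tested by itself, where 24.4% of all probes were, and 1 was called higher. For the 22 genes with several kept probes, all probes were lower in the mutant. The differences of one gene's probes spanned a median of 0.21. The widest span was that of *FBA2*, from -1.52 to -0.89 over 4 probes. The 3 *GLDP1* probes were at -1.89 to -1.86 and the 3 *GLDP2* probes at -0.49 to -0.36, so the probes of these isoforms did not overlap. The 5 *GLDT* probes were at -1.67 to -1.61.

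**Figure D3:**
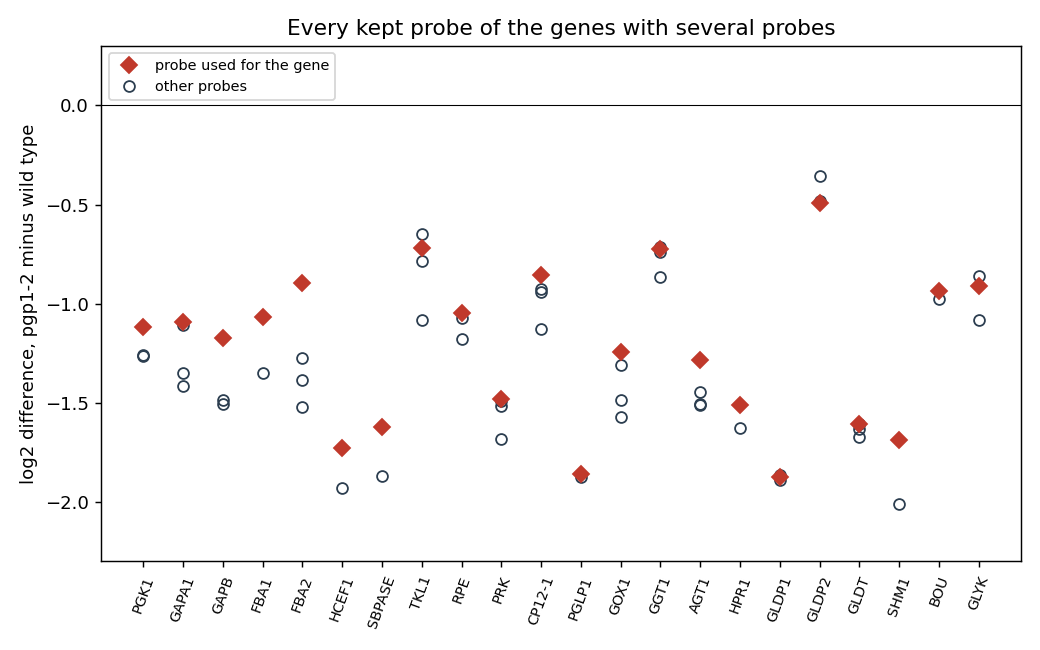
Log2 difference (mutant minus wild type) of every kept probe of the 22 genes that have several, with the probe used for the gene as a red diamond and the others as open circles. All points lie below 0, and the probes of one gene lie within 0.63 of each other.

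Among the arrays, mutant replicate 3 had the highest mutant signal for 31 of the 32 genes called lower, against 51.4% of all genes called lower and 32.1% of all genes tested. Wild-type replicate 1 had the highest wild-type signal for 26 of the 32, against 38.2% of all genes called lower. The genes of one pathway are not independent of each other. Without mutant replicate 3 the median of the 34 was -1.20 and 32 were called lower, where 22.8% of all genes were. Without wild-type replicate 1 the median was -1.09 and 31 were called lower, where 20.8% of all genes were. Within slide 1, with 1 array per genotype, 32 of the 34 genes were lower with a median of -1.36, and within slide 2, with 2 arrays per genotype, 32 were lower with a median of -1.02. A fit with slide as a block also called 32 lower, where 23.7% of all genes were.

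How arrays were scaled moved the size of the differences more than their direction. Relative to the spike-in probes the median of all genes shifted by 0.39, and the median of the 34 was -0.75. The same 32 genes were lower and 13 of them were called without the slide as a block, where 5.63% of all genes were called lower; with the block, 28 were called lower, where 9.87% of all genes were. Under quantile normalization the median was -0.80 and 28 were called lower, where 23.7% of all genes were.

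**Figure D4:**
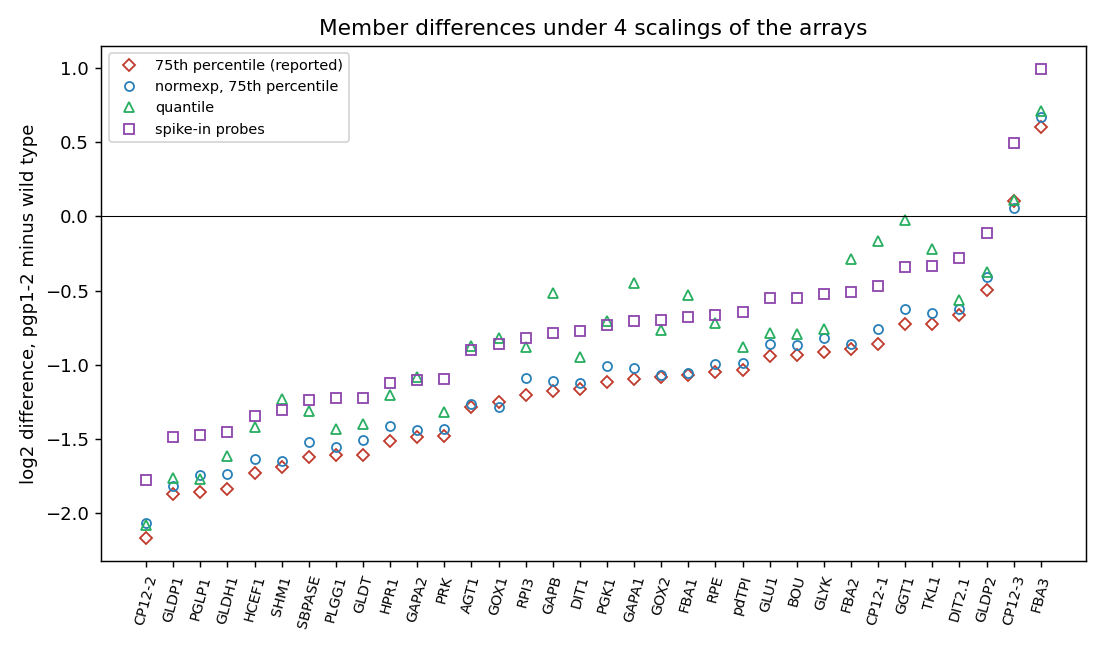
Log2 difference (mutant minus wild type) of each of the 34 genes under 4 ways of scaling the arrays, in order of the reported value. All genes except *CP12-3* and *FBA3* lie below 0 under each, and quantile normalization brings *GGT1* to -0.023.

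Marker genes of other parts of the seedling were read beside these results. Of 16 root markers, 11 were measured, of which 5 were called lower and 3 higher, where 24.5% and 27.9% of all genes were. Their summed linear signal, in units of the array's 75th percentile, was 19.3 to 21.0 in the wild type and 46.6 to 68.7 in the mutant. This sum was mostly *PYK10* (1.56 higher), and without it the sum was 1.78 to 2.1 and 1.69 to 1.93. The endodermis marker *CASP1* was called lower, with 1 of 3 mutant arrays well above background, and the root hair marker *COBL9* was called higher, with 2 of 3 wild-type arrays well above background, so no size is given for either. Of 10 shoot epidermis, guard cell and leaf identity markers, 2 were called lower and 3 higher, and their sum was 29.9 to 31.8 in the wild type and 27.5 to 30.1 in the mutant. Of 5 measured senescence markers, *SAG13* was higher (3.40) and *WRKY53* lower (-2.07), and the other 3 were not called, at -0.0097 to 0.13. The sum was 7.64 to 9.31 in the wild type and 9.65 to 12.4 in the mutant. It includes *SAG13*, which read -1.98 to -1.58 in the wild type and 1.20 to 2.12 in the mutant. No sum without *SAG13* was taken, so the sum does not show a rise of the markers as a set. The part of tissue proportions and age in the results was not tested.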

How the data were processed

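RNA of whole seedlings was hybridised to 6 one-colour (Cy3) arrays, 3 per genotype. Per the file headers, the authors quantified each array with Agilent Feature Extraction 10.7.1.1; the deposited processed signal is an intensity on a linear scale, already background-corrected and detrended on each array. Per the file headers, the other deposited columns used here are the median spot and background signals, and flags with values 0 and 1. Whether the authors normalized between arrays is not given in the sources used here. Arrays have no read depth; precision is set by how many arrays there are.

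The processed signal was taken to log2, and each array's 75th percentile over non-control spots was subtracted. Outlying spots were left out (197 probes lost all spots on an array) and spots of one probe were averaged. Probes had to be flagged well above background on the 3 arrays of at least 1 group. Where several probes of a gene passed, the brightest on average over the 6 arrays stood for it. Probes were named by unversioned transcript accession through the TAIR10.1 gene table (34358 of 43603 probes matched), which was used for names and gene order only. The 9245 probes without a match were grouped by their own identifier. Those that were kept count as genes among the 22682 tested and in every share of all genes.

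All 22682 genes were fitted with limma 3.58.1 in R 4.3.3 (lmFit and eBayes, two-sided) without a block, and p-values were adjusted by Benjamini-Hochberg over all of them, with a threshold of 0.05. The fit was tested on simulated data. Pairs of related genes were compared by two-sided exact permutation over the 6 arrays. The members, lists and tests were chosen with earlier results of these data known. Genes named are all members, their nearest paralogs and, of the other lists, those called at a log2 difference of 1 or more; any other gene is marked in the text as picked with its value in view. The files hold no mean spot signal, so the normexp alternative used the median spot signal with an offset of 50.

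Arrays 1 of both genotypes shared a slide, and the other 4 arrays shared another. Across genes, the correlation of deviations from the group mean between wild-type and mutant arrays of the same number was 0.081, 0.12 and 0.059. Between arrays of different numbers it was -0.14 to 0.039. The same-number values were the highest but small, so they do not settle whether the replicate numbers pair samples. The main fit did not pair them, and a fit with a replicate block is given below. The labels do not say whether replicates were separate cultures, so p-values measure the spread between these samples.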

Additional observations from a re-analysis of the deposited data

How the results depend on the processing

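All 34 genes kept their direction under the 17 alternatives of the test; of the 578 resulting values, 543 kept their side of the threshold, 34 lost a call and 1 gained one. Relative to the spike-in probes, the number called lower was 13 of all members, 5 of the Calvin cycle, 8 of photorespiration, 2 of its plastid and 2 of its peroxisomal genes, and the medians, which a block for slide leaves as they are, were -0.75, -0.71, -0.86, -0.66 and -0.86, and -1.26 for the mitochondrial genes. With that block, 28 members were called lower, where 9.87% of all genes were. There were 2 members called higher, both of the Calvin cycle, where 10434 of all 22682 genes were. Quantile normalization gave medians of -0.80 (all), -0.70 (Calvin cycle), -0.87 (photorespiration), -0.82 (peroxisome) and -1.31 (mitochondrion). The mean of all kept probes gave -1.40 for photorespiration. Within slide 1, with 1 array per genotype, medians were -1.36 (all), -1.31 (Calvin cycle), -1.40 (photorespiration), -1.34 (plastid) and -1.92 (mitochondrion). Leaving out 1 array gave 31 to 32 members called lower, where 19.9% to 22.8% of all genes were. The medians were then -1.20 to -1.06 (all) and -1.42 to -1.14 (photorespiration). The cause of these shifts was not tested.

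The difference of changes between paired genes under quantile normalization was 0.63 for *GAPA1* and *GAPA2*, -0.24 for *FBA1* and *FBA2*, 0.997 for *FBA3* and *FBA2* and 1.91 for *CP12-1* and *CP12-2*. With the mean of all probes it was 0.24, 0.060 (reversed), 1.87 and, for *GOX1* and *GOX2*, -0.32. That mean added probes with more negative differences to both *FBA1* and *FBA2*. It moved *FBA1* from -1.07 to -1.21 and *FBA2* further, from -0.89 to -1.27, so the sign of their difference changed. Why probes of one gene differ was not tested. With the replicate block, 32 members were called lower, where 22.9% of all genes were, and the median was -1.14. The count and the median were as without it, and no call of a member changed. Under the other settings run, among them normexp, array medians and both filters, counts stayed within 1.5 times of the reported ones. All members were well above background on all 6 arrays, and the number of arrays limits how precisely small differences such as that of *GLDP2* can be measured.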

Other observations

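Within the groups, the mutant arrays spread more than the wild-type arrays for most of these genes: the median SD of the log2 signal over the 34 genes was 0.12 over wild-type arrays and 0.23 over mutant arrays, and the largest was 0.19 and 0.40. *RPE* and *FBA3* had wild-type SDs of 0.022 and 0.020 against 0.22 and 0.24 in the mutant. Among the exceptions were *RPI3*, at 0.13 in the wild type and 0.038 in the mutant, and *DIT2.1*, at 0.11 and 0.041.

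The choice of the brightest probe for a gene bears on the size of the falls. For 16 of the 22 genes with several kept probes, the probe used was the one with the smallest change. Averaging all kept probes moved the median of the 34 genes from -1.14 to -1.23.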
